A study of Mus musculus with 6 samples.

Results

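The 10 genes described here break down heme or move and store iron: Hmox1, Blvra, Blvrb, Cd163, Tfrc, Slc11a2, Slc11a1, Fth1, Ftl1 and Slc40a1. They were selected by symbol, and selected with their vehicle and DS-5272 values in these samples already known, so their difference between treatments is given as a description with no test. They are 10 of the 26082 gene names with an expression value in each sample, and all 10 are among the 11130 genes that averaged 1 FPKM or more across the 6 samples and were tested. FPKM are fragments divided by transcript length and by the mapped fragments of the library, so levels can be set side by side between genes.

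RNA-Seq was performed on MLL-AF9 leukemia cells, a mouse model of acute myeloid leukemia in which C57BL/6J bone marrow progenitors carry the retrovirally transduced MLL-AF9 fusion oncogene. Leukemic mice received by mouth either vehicle (3 samples) or 80 mg/kg of DS-5272, an inhibitor of the p53-MDM2 interaction (3 samples), and the comparison asks how the leukemia cells respond within 24 h. Bone marrow leukemia cells were isolated with a cell sorter, and both groups carry the same oncogene. The model starts from c-Kit+ progenitors passaged through recipient mice several times and marked with GFP, and the marrow of a recipient keeps its own blood and stromal cells beside them. The labels give neither the age of the mice nor whether each sample is 1 mouse, so the spread reported below is that between samples.

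Heme oxygenase opens the heme ring and releases iron and biliverdin, which the biliverdin reductases convert to bilirubin. Iron enters most cells bound to transferrin through the transferrin receptor, leaves the endosome or lysosome through the SLC11 transporters, is stored in shells of ferritin heavy and light chains, and leaves the cell through ferroportin. Macrophages of the bone marrow and spleen are the body's main site of heme breakdown, since they engulf aged red cells and return the iron to the blood. Iron shortage or excess is read by iron regulatory proteins that bind a short hairpin, the iron-responsive element, in the untranslated regions (UTRs) of several of these mRNAs: binding in the 5′ UTR blocks translation, and binding in the 3′ UTR protects the mRNA from decay.

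The hairpins are shown because they divide the members into those known to be controlled at the level of mRNA decay and those known to be controlled at the level of translation, which RNA-Seq does not measure. They were searched on the sense strand of GENCODE transcripts of GRCm38 as an unpaired C, 5 bases, the loop CAGTGN and 5 bases that pair with the first 5, with G-T pairs allowed. Of 21877 protein-coding genes, 294 (1.34%) held such a match, and so did 4 of the 10 members. The capitals mark the unpaired C and the loop, and each sequence is written 5′ to 3′ on the strand of its gene.

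Fth1, 5′ UTR, chr19:9982732-9982760, plus strand: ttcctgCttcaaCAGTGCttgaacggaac
Ftl1, 5′ UTR, chr7:45459779-45459807, minus strand: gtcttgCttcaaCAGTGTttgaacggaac
Slc40a1, 5′ UTR, chr1:45925465-45925493, minus strand: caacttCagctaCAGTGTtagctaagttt
Tfrc, 3′ UTR, chr16:32631219-32631247, plus strand: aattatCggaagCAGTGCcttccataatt
Tfrc, 3′ UTR, chr16:32631598-32631626, plus strand: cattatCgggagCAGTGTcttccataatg
Tfrc, 3′ UTR, chr16:32631663-32631691, plus strand: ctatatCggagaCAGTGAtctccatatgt
Tfrc, 3′ UTR, chr16:32631710-32631738, plus strand: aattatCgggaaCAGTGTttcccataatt

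Both ferritin mRNAs and the ferroportin mRNA Slc40a1 held 1 match in the 5′ UTR, while Tfrc held 4 matches in the 3′ UTR. No match to these letters was found in Slc11a2 or in the other 5 members. The fixed pattern misses hairpins of other forms, so the lack of a match does not place a member outside this control. A match is a description of the sequence and no measure of binding in these cells.

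Of the 10 genes, 9 had a higher mean and 1 had a lower mean in DS-5272-treated than in vehicle-treated MLL-AF9 cells. The samples did not overlap for 6 genes, all higher with DS-5272 (Hmox1, Blvra, Blvrb, Slc11a1, Fth1 and Ftl1), and overlapped for the other 4. Among all genes tested, 32.1% had no overlap with DS-5272 higher and 29.7% had no overlap with DS-5272 lower, and nothing is read from the members' count since these values were known when they were chosen. The members' median log2 fold change was 0.77, beside 0.04 over all 11130 genes. All log2 fold changes are of FPKM + 1, DS-5272 minus vehicle, with the standard error (SE) of the fit across all genes.

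**Figure D1:**
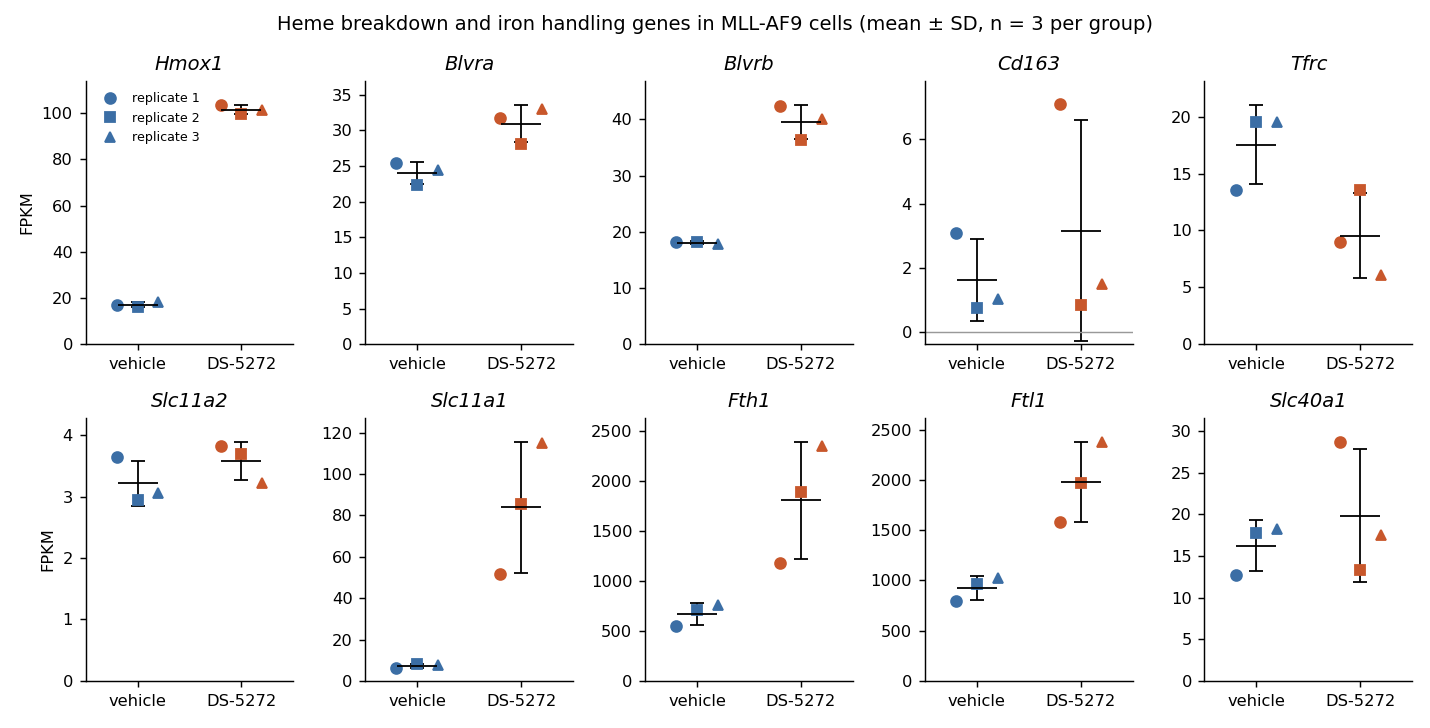
Expression of the 10 genes in FPKM in each sample, vehicle in blue and DS-5272 in orange, with a panel and axis scale per gene, horizontal lines at the mean and bars of 1 SD (n = 3 per group); the lower bar of Cd163 extends below 0. Hmox1, Blvra, Blvrb, Slc11a1, Fth1 and Ftl1 have every DS-5272 sample above every vehicle sample, and DS-5272 replicate 1 stands above the rest for Cd163 and Slc40a1.

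The heme breakdown enzymes were higher with DS-5272, most of all heme oxygenase 1. Hmox1 (chromosome 8, 75093621 to 75100589, plus strand, GRCm38), the inducible heme oxygenase, measured 16.98, 16.04 and 18.3 FPKM with vehicle and 104, 99.7 and 101 FPKM with DS-5272, here and below in the order of replicates 1, 2 and 3. The groups lie far apart and each is tight, with 17.1 ± 1.11 FPKM (SD, n = 3) for vehicle and 102 ± 1.91 FPKM (SD, n = 3) for DS-5272. The ratio of means was 5.94 and the log2 fold change was 2.50 (SE 0.09), above 98.8% of the genes tested.

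Blvrb, which encodes the NADPH-dependent biliverdin reductase B that also acts as a flavin reductase, measured 18.2, 18.1 and 17.8 FPKM in the vehicle samples and 42.3, 36.4 and 40.0 FPKM in the DS-5272 samples. The vehicle samples were nearly equal, and every DS-5272 sample lay well above them, with a ratio of means of 2.19 and a log2 fold change of 1.09 (SE 0.09). The gene lies on chromosome 7, 27447978 to 27466144, plus strand. Blvra, the biliverdin reductase that makes bilirubin from the main isomer of biliverdin, measured 25.4, 22.4 and 24.5 FPKM with vehicle and 31.8, 28.0 and 33.0 FPKM with DS-5272. All 3 treated samples lay above all 3 controls, but the gap was small, with a ratio of means of 1.29 and a log2 fold change of 0.35 (SE 0.10). When the samples were rescaled to a common total, the log2 fold change of Blvra was 0.092, so its size depends on the scaling. The gene lies on chromosome 2, 127070665 to 127097084, plus strand.

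The vehicle samples thus held more Blvra than Blvrb (24.1 ± 1.54 against 18.1 ± 0.217 FPKM, SD, n = 3), and the DS-5272 samples held more Blvrb than Blvra (39.6 ± 2.99 against 30.9 ± 2.62 FPKM, SD, n = 3). This order held within each of the 6 samples. Hmox2, the constitutive heme oxygenase and no member of the group, was above Hmox1 in the vehicle samples, where the ratio of Hmox1 to Hmox2 was 0.436, 0.408 and 0.438. It was below Hmox1 in the DS-5272 samples, where that ratio was 1.43, 1.42 and 1.15. Exons of Hmox2 overlap Cdip1 on the other strand, so fragments may be shared.

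Cd163, the receptor through which macrophages take up complexes of hemoglobin and haptoglobin, was low in all samples but 1. It measured 3.09, 0.755 and 1.04 FPKM with vehicle and 7.10, 0.860 and 1.49 FPKM with DS-5272. The groups overlap, and the log2 fold change of 0.45 (SE 0.59) became −0.18 without DS-5272 replicate 1. The value is the sum of 2 entries of that symbol, which measured 1.05, 0.221, 0.535, 6.12, 0.544 and 1.08 FPKM (the first entry) and 2.05, 0.534, 0.509, 0.983, 0.316 and 0.418 FPKM (the second entry) in the same order of samples. DS-5272 replicate 1 was the highest treated sample in both entries, but only in the first was it above all vehicle samples. Neighbouring entries of the first are annotated on the plus strand in 19 of 19 cases and those of the second on the minus strand in 17 of 17 cases, while Cd163 itself (chromosome 6, 124304656 to 124330527) is annotated on the plus strand, so the second entry may not be sense transcript of this gene.

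Tfrc, the transferrin receptor that carries the 4 hairpins shown in its 3′ UTR, was the only member with a lower mean under DS-5272. It measured 13.52, 19.5 and 19.6 FPKM in the vehicle samples and 8.99, 13.53 and 6.08 FPKM in the DS-5272 samples. The groups touch at vehicle replicate 1 and DS-5272 replicate 2, which are nearly equal, and otherwise all vehicle samples are higher. The means were 17.5 ± 3.48 and 9.53 ± 3.75 FPKM (SD, n = 3), with a vehicle-to-DS-5272 ratio of 1.84 and a log2 fold change of −0.86 (SE 0.28). Between samples of the same replicate number the ratio of DS-5272 to vehicle was 0.665, 0.692 and 0.310. Tfrc lies on chromosome 16, 32608920 to 32632794, plus strand.

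Slc11a1 (NRAMP1), the divalent metal transporter of the phagosome membrane of macrophages and neutrophils, had the largest ratio of means of the 10 genes. It measured 6.11, 7.98 and 7.51 FPKM with vehicle and 51.5, 85.2 and 115 FPKM with DS-5272. Every DS-5272 sample was several times above every vehicle sample, but the DS-5272 samples differed among themselves, with DS-5272 replicate 1 lowest. The means were 7.20 ± 0.973 and 83.9 ± 31.7 FPKM (SD, n = 3), a ratio of 11.6 and a log2 fold change of 3.31 (SE 0.28), above 99.6% of the genes tested. C57BL/6 mice are known to carry a loss-of-function allele of Slc11a1, so the mRNA level does not give the level of working transporter. The gene lies on chromosome 1, 74375195 to 74386062, plus strand.

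Slc11a2 (DMT1), the related transporter that passes iron out of the transferrin endosome, was expressed at a low and even level. It measured 3.64, 2.95 and 3.06 FPKM with vehicle and 3.82, 3.69 and 3.23 FPKM with DS-5272, and the groups overlap. The log2 fold change was 0.12 (SE 0.12) and was −0.093 after rescaling to a common total, so no direction can be given. The ratio of Slc11a1 to Slc11a2 was 1.68, 2.71 and 2.45 in the vehicle samples and 13.5, 23.1 and 35.6 in the DS-5272 samples. Slc11a2 lies on chromosome 15, 100387898 to 100425072, minus strand, and has an exon that overlaps Gm5475 on the other strand.

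The ferritin chains were by far the most abundant of the 10 transcripts, and both were higher with DS-5272. Fth1, the heavy chain with ferroxidase activity, measured 549, 706 and 759 FPKM with vehicle and 1179, 1890 and 2344 FPKM with DS-5272. Ftl1, the light chain that promotes mineral formation inside the shell, measured 794, 962 and 1021 FPKM with vehicle and 1586, 1966 and 2382 FPKM with DS-5272. The groups do not overlap for either chain, and in both groups replicate 1 was lowest and replicate 3 highest.

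The mean of Fth1 rose from 671 ± 109 to 1804 ± 587 FPKM (SD, n = 3), with a ratio of 2.69 and a log2 fold change of 1.38 (SE 0.27). The mean of Ftl1 went from 926 ± 118 to 1978 ± 398 FPKM (SD, n = 3), with a ratio of 2.14 and a log2 fold change of 1.08 (SE 0.19). By mean FPKM over all samples, Ftl1 ranked 33 and Fth1 ranked 44 among the genes tested. Together they held 0.302%, 0.339% and 0.355% of the FPKM sum in the vehicle samples and 0.554%, 0.665% and 0.715% in the DS-5272 samples. Each share is of the sample's own FPKM sum, and every DS-5272 share was above every vehicle share.

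The balance of the chains was measured as the ratio of Fth1 to Ftl1. It was 0.691, 0.734 and 0.743 with vehicle and 0.744, 0.961 and 0.984 with DS-5272. Light chain exceeded heavy chain in all 6 samples, and DS-5272 replicate 1 was almost equal to the highest vehicle sample while the other treated samples were near equality. Fth1 lies on chromosome 19, 9980598 to 9985098, plus strand, and Ftl1 on chromosome 7, 45457944 to 45459884, minus strand. GENCODE holds 5 ferritin pseudogenes named Fth-ps or Ftl-ps, and exons of Ftl1 overlap Gm10252 and Gm22133, so fragments may be shared with these copies.

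Slc40a1 encodes ferroportin, the only known cellular iron exporter. It measured 12.7, 17.8 and 18.3 FPKM with vehicle and 28.7, 13.3 and 17.5 FPKM with DS-5272. The groups overlap, and DS-5272 replicate 1 was highest while the other treated samples lay within the vehicle range. The log2 fold change was 0.22 (SE 0.28), −0.067 without DS-5272 replicate 1 and −0.22 without both samples numbered 1, so no direction can be given. The ratio of Slc40a1 to Tfrc was 0.939, 0.909 and 0.934 in the vehicle samples and 3.20, 0.986 and 2.87 in the DS-5272 samples. In DS-5272 replicates 1 and 3, which reached a similar ratio, Tfrc was below every vehicle sample (8.99 and 6.08 FPKM). Only replicate 1 also had Slc40a1 above every vehicle sample. Slc40a1 lies on chromosome 1, 45908068 to 45926523, minus strand.

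**Figure D2:**
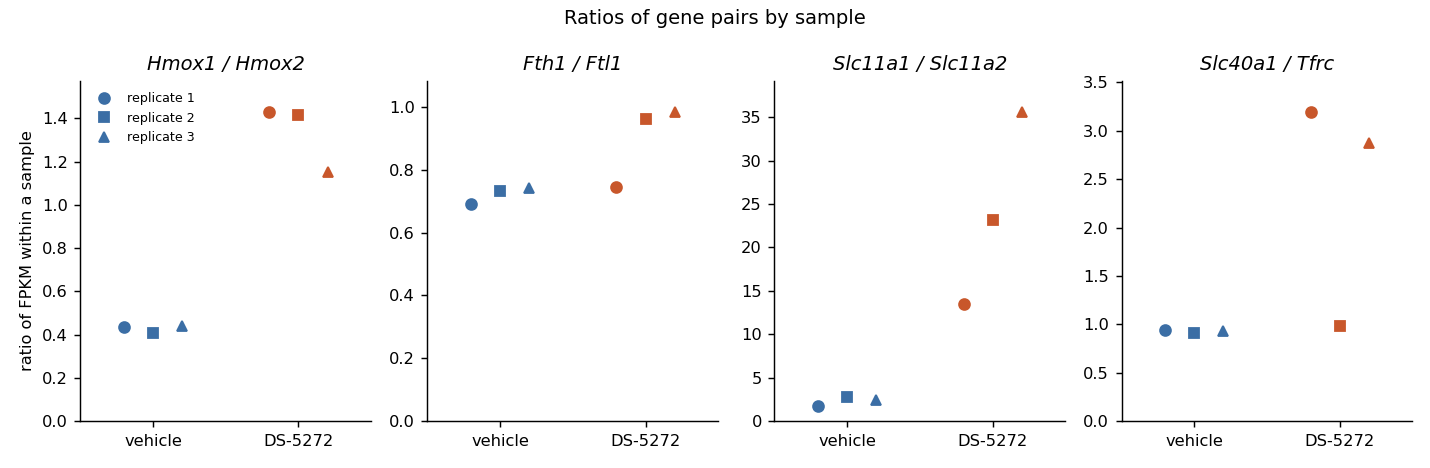
Ratio of FPKM of a pair of genes within each sample, vehicle in blue and DS-5272 in orange, one panel per pair with its own axis. Hmox1 / Hmox2 and Slc11a1 / Slc11a2 are higher in every DS-5272 sample, Fth1 / Ftl1 is close to the vehicle samples in DS-5272 replicate 1, and Slc40a1 / Tfrc is close to them in DS-5272 replicate 2.

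The size of the changes depended on how samples were scaled and on single samples to different degrees. The FPKM sum was 445316 to 501241 in the vehicle samples and 499229 to 661184 in the DS-5272 samples, and rescaling to a common total lowered the median log2 fold change of all genes by 0.25 on the log2 scale. On that scale the log2 fold change was 2.27 for Hmox1, 3.13 for Slc11a1, 1.12 for Fth1, 0.84 for Blvrb, 0.82 for Ftl1 and −1.15 for Tfrc. Leaving out each sample in turn gave 2.46 to 2.55 for Hmox1, 3.04 to 3.62 for Slc11a1, 1.17 to 1.66 for Fth1, 0.94 to 1.23 for Ftl1 and −1.12 to −0.60 for Tfrc. These 5 genes, Blvra and Blvrb therefore kept their direction under each of these settings, while Slc40a1, Slc11a2 and Cd163 did not.

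**Figure D3:**
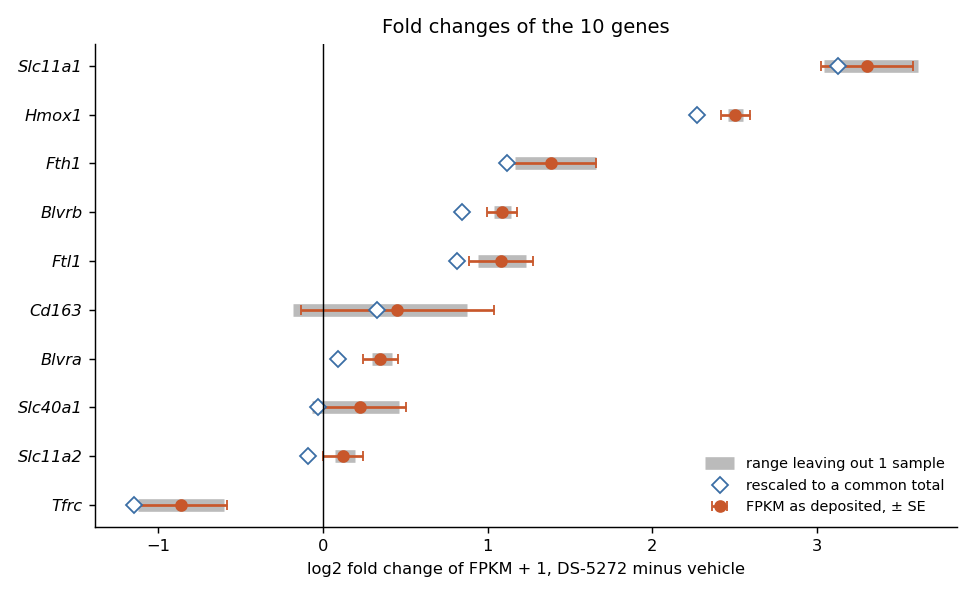
Log2 fold change of FPKM + 1 for the 10 genes, DS-5272 minus vehicle: orange points with bars of 1 SE for FPKM as deposited, grey bands for the range when each sample is left out in turn, and open diamonds after rescaling to a common total. Slc11a1 and Hmox1 stand at 3.31 and 2.50, Tfrc at −0.86, and the bands or diamonds of Cd163, Slc40a1 and Slc11a2 reach below 0.

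Transcripts of macrophages were high in DS-5272 replicate 1, so each member was set against the mean of DS-5272 replicates 2 and 3. Of the 13 bone marrow macrophage markers tested, 12 were higher in DS-5272 replicate 1 than that mean, with a median ratio of 5.67. Over all genes tested the median was 0.945 and 40.5% of genes were above 1. Spic, Mrc1, Axl, Mertk and Fcna passed the filter only through DS-5272 replicate 1. Macrophage transcripts were known beforehand to be high in this sample, so nothing is read from counts of markers high there. The ratios ranged from 0.613 for Adgre1, a surface receptor known from macrophages and other myeloid cells, to 19.9 for Cd5l. C1qa, a complement component made by macrophages, measured 1.33, 0.719 and 2.15 FPKM with vehicle and 38.4, 6.92 and 6.64 FPKM with DS-5272. Spic, the transcription factor of heme-recycling macrophages, measured 0.330, 0.0961 and 0.110 FPKM with vehicle and 5.65, 0.477 and 0.828 FPKM with DS-5272.

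Among the members, Cd163 and Slc40a1 stood out in the same sample, with ratios of 6.04 and 1.86, above 99.7% and 97.1% of the genes tested. Hmox1, Blvra, Blvrb and Slc11a2 were at 1.03, 1.04, 1.11 and 1.11, and Tfrc was at 0.917. Ftl1, Fth1 and Slc11a1 were lower there, at 0.729, 0.557 and 0.514. Hmox1 was thus as high in DS-5272 replicates 2 and 3 as in replicate 1, and without replicate 1 its log2 fold change was 2.49.

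**Figure D4:**
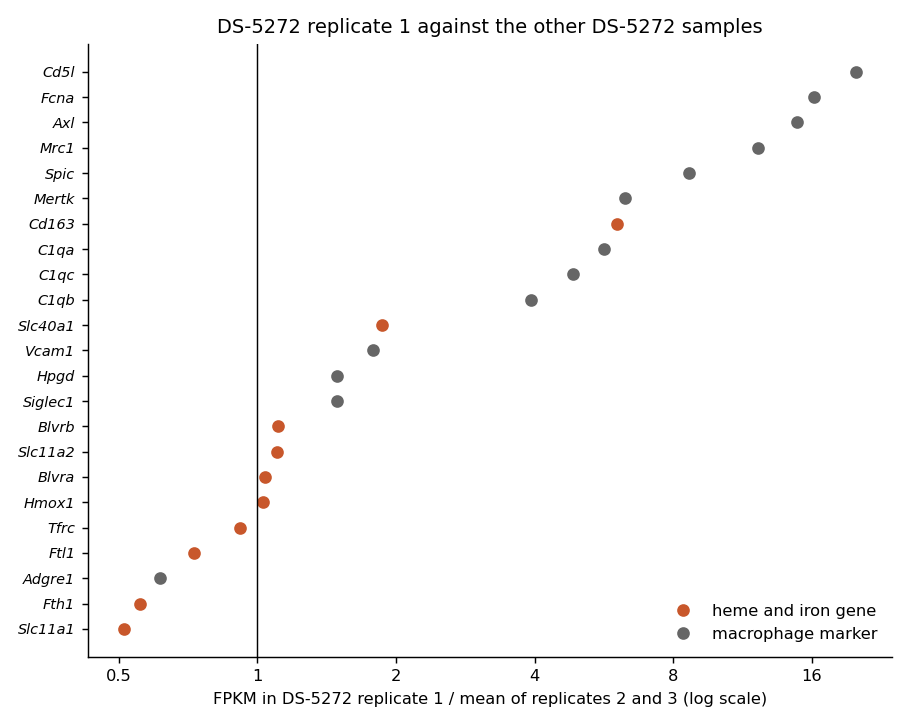
Ratio of FPKM in DS-5272 replicate 1 to the mean of DS-5272 replicates 2 and 3, on a log scale, for the 10 heme and iron genes (orange) and the 13 tested bone marrow macrophage markers (grey). Cd163 and Slc40a1 lie among the macrophage markers at 6.04 and 1.86, Hmox1 lies near 1, and Slc11a1 and Fth1 are the lowest of the orange points.

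The summed level of the 15 macrophage markers with an entry was 1039, 949 and 977 FPKM with vehicle and 1720, 1105 and 1012 FPKM with DS-5272, and 14 of the 15 were highest in DS-5272 replicate 1. Hpgd, which measured 858 to 973 FPKM with vehicle, makes up most of this sum. The other 14 markers summed to 65.5, 87.4 and 119 FPKM with vehicle and 501, 206 and 269 FPKM with DS-5272. Vcam1 measured 36.6, 64.1 and 82.8 FPKM with vehicle and 143, 74.8 and 85.7 FPKM with DS-5272. Adgre1 measured 16.7, 17.6 and 23.3 and then 59.8, 79.1 and 116 FPKM. Together they made up most of that sum in every sample but DS-5272 replicate 1. The paper reports higher VCAM-1 in c-Kit+ cells after DS-5272. Of the 13 macrophage markers tested, 5 were called higher and 0 lower by limma (adjusted p under 0.05), against 24.2% higher and 22% lower among all genes tested. Without DS-5272 replicate 1, 5 were called higher too. The replicate block gave 7 called higher, since Cd5l and Spic then passed (limma adjusted p = 0.0393 and 0.0421, both 0.120 without it). Spic, Mrc1, Axl, Mertk and Fcna passed the filter only through DS-5272 replicate 1, whose macrophage transcripts were known to be high. Nothing is therefore read from these counts or from the call of Spic. At an unadjusted p under 0.05, 0 were lower as well. Folr2 was at or under 1 FPKM in every sample. The part of these transcripts in the values of Cd163 and Slc40a1 was not tested. In bulk samples, more or fewer cells of a type and more or less RNA per cell cannot be told apart.

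Other cells that handle heme or iron were checked in the same way. Of 14 erythroid markers, 11 had an entry and 9 of these, Klf1, Epor and Slc4a1 included, were at or under 1 FPKM in every sample. Among these 9, the mean was lower with DS-5272 for Klf1 (0.327 to 0.118 FPKM) and Gata1 (0.283 to 0.0908 FPKM). Rhag was not detected and the others had higher means, and at these low levels none was tested. The alpha globin Hba-a1 measured 2.39, 1.05 and 0.598 FPKM with vehicle and 84.2, 14.7 and 7.07 FPKM with DS-5272, and Hba-a2 measured 0.841, 0.259 and 0.592 and then 55.2, 10.6 and 4.47 FPKM. Both globins were thus highest in DS-5272 replicate 1, and both passed the test (limma adjusted p = 0.0175 and 0.0147). Hba-a2 averaged 0.564 FPKM with vehicle and passed the filter only through the DS-5272 samples, so nothing is read from its call. The call of Hba-a1 was lost without vehicle replicate 2 or 3 and that of Hba-a2 without vehicle replicate 2, with adjusted p-values of up to 0.0575 and 0.0535. Of 8 lymphoid markers, 7 were at or under 1 FPKM in every sample.

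The sum of neutrophil granule markers rose from replicate 1 to replicate 3 within the treated group, but Elane and Prtn3 did not rise in that order. Elane measured 353, 411 and 210 FPKM and Prtn3 measured 591, 651 and 613 FPKM with DS-5272, and both were called lower. Elane, at 1579, 1800 and 2128 FPKM with vehicle, made up a large part of the vehicle sum. The summed level of the list was 2571, 3924 and 4893 FPKM with vehicle and 4113, 10494 and 16045 FPKM with DS-5272, with 5 of 9 called higher and 2 lower by limma. The replicate block gave 7 called higher, since Camp and Ngp then passed (limma adjusted p = 0.0199 and 0.0024, beside 0.350 and 0.179). Slc11a1, Fth1 and Ftl1 rose in the same order as this sum within the DS-5272 group, from replicate 1 to replicate 3. The FPKM sums of these samples had that order too (499229, 579884 and 661184). The part of the granule transcripts or of the FPKM sums in the values of Slc11a1, Fth1 and Ftl1 was not tested. Of the leukemia cell markers tested, Itgam, Csf1r and Ptprc were called higher, Kit and Mpo were called lower, and Meis1 was detected at 66.1 to 110 FPKM in every sample.

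Genes of the same pathways outside the 10 members were tested with limma on log2(FPKM + 1), adjusting over all 11130 genes, of which 24.2% were called higher and 22% lower. In heme synthesis, 3 of 13 genes tested rose (23.1%), 6 fell (46.2%) and 4 did not pass. The share of rises was near that of all genes and the share of falls was higher, with a median log2 fold change of 0.07. Without DS-5272 replicate 1 the counts were 2 and 6. The lists were chosen with earlier results of these data known, so the shares of this and the other lists are only described. The genes that rose were Alas1, Slc25a38 and Ppox, and those that fell included Alad, Fech, Abcb6, Cpox and Abcb10.

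Alas1, the first and rate-limiting enzyme of heme synthesis outside the red cell lineage, measured 155, 177 and 180 FPKM with vehicle and 302, 234 and 268 FPKM with DS-5272. Its log2 fold change was 0.64 (SE 0.13, adjusted p = 0.0095), but it did not pass after rescaling to a common total or after quantile normalization, where the adjusted p reached 0.215. Slc25a38, the mitochondrial carrier that brings in glycine for this step, rose from 10.02 ± 0.861 to 18.4 ± 2.92 FPKM (SD, n = 3), which is a log2 fold change of 0.81 (adjusted p = 0.00584). Ppox, the penultimate enzyme, had a smaller log2 fold change of 0.40 (adjusted p = 0.0341), and its call was lost in 9 of the 16 alternatives, with an adjusted p of up to 0.344.

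The enzymes at the second and the last step of heme synthesis fell in these data. Alad, which joins molecules of aminolevulinate into porphobilinogen, measured 7.57, 6.61 and 7.26 FPKM with vehicle and 2.49, 3.52 and 1.71 FPKM with DS-5272, a log2 fold change of −1.22 (SE 0.19, adjusted p = 0.00489). Fech, ferrochelatase, which inserts iron into the porphyrin ring, measured 31.0, 35.9 and 36.8 and then 16.8, 19.2 and 18.6 FPKM, a log2 fold change of −0.89 (SE 0.11, adjusted p = 0.00243). Every treated sample was below every control for both enzymes. Abcb6, a porphyrin transporter, fell from 4.79 ± 0.363 to 2.39 ± 0.669 FPKM (SD, n = 3), which is a log2 fold change of −0.79 (adjusted p = 0.0101). Alas2, the red cell form of the first enzyme, measured 1.18, 0.930 and 0.863 FPKM with vehicle and 5.88, 1.93 and 0.875 FPKM with DS-5272, where the high sample was again DS-5272 replicate 1, and it was not called.

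Heme transport, scavenging and sensing had 7 of 11 genes tested that rose (63.6%), 0 that fell and 4 that did not pass, with a median log2 fold change of 0.75. At an unadjusted p under 0.05 the limma fit also gave 7 higher and 0 lower. The count of rises was 7 without DS-5272 replicate 1 and 4 when any single vehicle sample was left out. Lrp1, the receptor for heme bound to hemopexin and for many other ligands, measured 5.09, 6.38 and 5.98 FPKM with vehicle and 21.0, 23.2 and 35.1 FPKM with DS-5272, a log2 fold change of 1.98 (SE 0.20, adjusted p = 0.00155). Hmox2 measured 38.9, 39.3 and 41.7 FPKM with vehicle and 72.4, 70.4 and 88.0 FPKM with DS-5272, a log2 fold change of 0.92 (SE 0.11, adjusted p = 0.00262). Both groups of samples are apart for these 2 genes. The part of Cdip1, which overlaps exons of Hmox2, in the Hmox2 values was not tested.

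Antioxidant response elements, through which Hmox1 is known to be controlled, are bound by activators, repressors and small MAF proteins, of which Nfe2l2, Bach1 and Mafk were called higher. The small MAF gene Maff was not called (limma adjusted p = 0.322, and 0.00352 with the replicate block), and Mafg lies in a joined entry and was not tested. Nfe2l2 (NRF2), an activator, measured 28.4, 22.9 and 24.7 FPKM with vehicle and 41.1, 48.5 and 71.3 FPKM with DS-5272, a log2 fold change of 1.02 (SE 0.21, adjusted p = 0.0093). Bach1, a heme-binding repressor of Hmox1, rose too, from 19.8 ± 0.196 to 34.2 ± 10.1 FPKM (SD, n = 3), which is a log2 fold change of 0.72 (adjusted p = 0.0219). The call of Bach1 was lost when any single vehicle sample was left out and without both samples numbered 1. Mafk, a small MAF partner of both, had a log2 fold change of 1.08 (SE 0.35, adjusted p = 0.043), with an adjusted p of 0.00249 when the replicate number was a block, and its call was lost in 6 of the 16 alternatives.

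Flvcr1, a heme exporter listed in the table as Mfsd7b, had a log2 fold change of 0.49 (adjusted p = 0.0265), and its call was lost in 7 alternatives. Slc48a1, the transporter that moves heme out of the lysosome, was even between groups at 59.3, 67.9 and 63.6 FPKM with vehicle and 66.1, 67.5 and 69.6 FPKM with DS-5272 (log2 fold change 0.09, adjusted p = 0.445). Its direction turned under 3 of the scalings. Hp, haptoglobin, passed the test as the seventh gene of the list.

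In the RefSeq promoter sequences used here, the core of the antioxidant response element, TGAC followed by any 3 bases and GC, was searched on both strands from 250 bases before to 50 bases after each start (GRCm38 RefSeq). It was present in 12.4% of 32851 promoters. Among the 7 members matched, 1 of 10 windows held it, that of Blvra. Hmox1, Slc40a1 and Slc11a2 were not analysed here. The absence of a match says only that these letters are not in that window.

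Iron uptake, export and storage had 6 of 16 genes tested that rose (37.5%), 2 that fell (12.5%) and 8 that did not pass, with a median log2 fold change of 0.14. Without DS-5272 replicate 1, 4 rose and 2 fell. Lcn2, lipocalin 2, a neutrophil granule protein that binds iron-carrying siderophores, measured 261, 752 and 841 FPKM with vehicle and 1747, 3076 and 5728 FPKM with DS-5272. The log2 fold change was 2.51 (SE 0.57, adjusted p = 0.0133), and as in the sum of neutrophil granule markers, DS-5272 replicate 1 was the lowest treated sample. Steap4, a metalloreductase, rose from 1.16 ± 0.543 to 8.12 ± 2.94 FPKM (SD, n = 3), which is a log2 fold change of 2.06 (adjusted p = 0.00359).

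Trf, transferrin, the iron carrier of the blood, measured 37.8, 39.7 and 42.4 FPKM with vehicle and 96.9, 119 and 166 FPKM with DS-5272, a log2 fold change of 1.61 (SE 0.19, adjusted p = 0.00243). Its receptor Tfrc had the opposite direction in its mean. Steap3, the endosomal reductase that acts beside the transferrin receptor, fell from 6.07 ± 0.9003 to 2.82 ± 0.766 FPKM (SD, n = 3), which is a log2 fold change of −0.90 (adjusted p = 0.00962). Slc39a8, a zinc and iron importer of the cell surface, fell from 6.08 ± 0.231 to 2.14 ± 1.11 FPKM (SD, n = 3), which is a log2 fold change of −1.25 (adjusted p = 0.013).

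The regulators of the hairpins shown above did not move as 1 group. Fbxl5, the iron-sensing ubiquitin ligase subunit that removes iron regulatory protein 2, measured 39.0, 51.1 and 45.1 FPKM with vehicle and 116, 126 and 226 FPKM with DS-5272, a log2 fold change of 1.71 (SE 0.26, adjusted p = 0.00431). Exons of Fbxl5 overlap Bst1 on the other strand, so fragments may be shared. Ireb2, which encodes iron regulatory protein 2, measured 17.4, 15.5 and 13.9 and then 14.1, 11.8 and 11.98 FPKM and was not called (log2 fold change −0.29, adjusted p = 0.0928). Aco1, which encodes iron regulatory protein 1, was called higher with a log2 fold change of 0.39 (adjusted p = 0.0351), and its call was lost in 11 of the 16 alternatives. Ncoa4, the receptor that delivers ferritin to the lysosome, measured 114, 146 and 162 FPKM with vehicle and 107, 114 and 173 FPKM with DS-5272 and was not called (log2 fold change −0.12, adjusted p = 0.668).

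Iron-sulfur cluster assembly had 0 of 25 genes tested that rose and 7 that fell (28%), and 18 did not pass in the limma fit. At an unadjusted p under 0.05 the counts were 2 and 7. The median log2 fold change was −0.01, beside 0.04 over all genes. Without DS-5272 replicate 1, 3 rose and 6 fell, and 4 fell without vehicle replicate 2 or without vehicle replicate 3. Hspa9, the mitochondrial chaperone that transfers new clusters, fell from 183 ± 5.59 to 78.5 ± 28.4 FPKM (SD, n = 3; log2 fold change −1.28, adjusted p = 0.0111). Bola3, a cluster transfer protein, fell from 63.2 ± 3.89 to 40.6 ± 4.58 FPKM (SD, n = 3; log2 fold change −0.63, adjusted p = 0.00674).

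**Figure D5:**
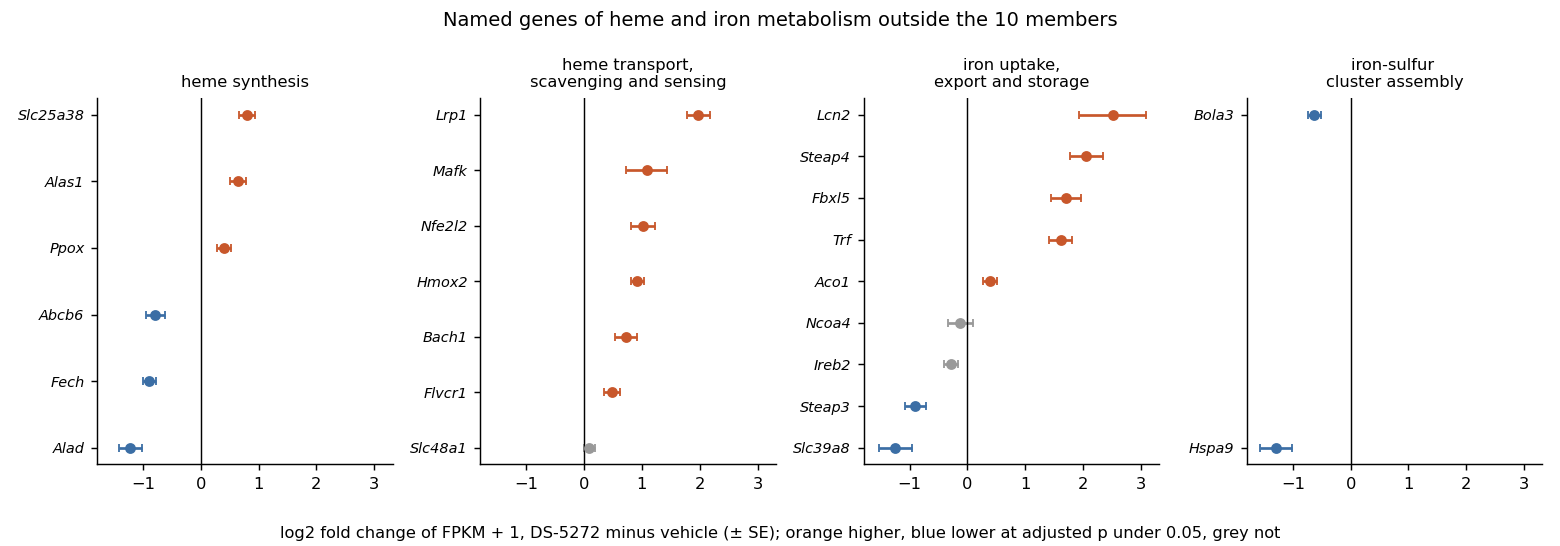
Log2 fold change of FPKM + 1, DS-5272 minus vehicle, with bars of 1 SE for genes named in the text from 4 lists outside the 10 members, a panel per list. Orange genes were called higher and blue genes lower at a limma adjusted p under 0.05 over all 11130 genes, and grey genes were not called; Lcn2 and Lrp1 lie farthest to the right at 2.51 and 1.98 in their panels, and Alad and Hspa9 farthest to the left in theirs at −1.22 and −1.28.

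The genes whose pattern over the 6 samples was most like that of Hmox1, by Pearson correlation of log2(FPKM + 1), were Plau, Dse and 1500032L24Rik (r = 0.999, 0.998 and 0.997). Dse measured 1.78, 1.59 and 1.55 FPKM with vehicle and 8.96, 8.31 and 8.82 FPKM with DS-5272, so like Hmox1 it was tight in both groups. For Slc40a1 the closest were Gm10734, Tmem68 and Laptm4b (r = 0.986, 0.983 and 0.972). Laptm4b measured 12.7, 14.2 and 13.7 FPKM with vehicle and 18.3, 12.7 and 14.2 FPKM with DS-5272, with DS-5272 replicate 1 highest as for Slc40a1. The 6 samples fall into 2 treatments, so a high correlation with Hmox1 mainly repeats the difference between them.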

How the data were processed

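RNA-Seq libraries of 3 vehicle and 3 DS-5272 samples were analysed. From strand-specific libraries, the authors trimmed the reads (cutadapt 1.8.1 and fastx-toolkit), assessed them with FastQC, aligned them to GRCm38 with TopHat2 2.1.1 and deposited gene FPKM values from Cufflinks 2.2.1, scaled to transcript length and library size, with no counts, so no count model was used. All sample columns were mapped (0 unmapped). Entries sharing a symbol were summed. The 433 entries joining several genes stayed among the names and could be tested, but listed genes were not matched to them. Relative depth, estimated from genes that stayed under 0.15 FPKM in all samples, was 1, 0.807 and 0.883 in the vehicle and 0.747, 0.651 and 0.540 in the DS-5272 samples. Read totals are not part of the table and no counting intervals were derived.

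Groups follow the labels' treatment. limma 3.58.1 in R 4.3.3 (lmFit, eBayes with trend, two-sided) was fitted to log2(FPKM + 1) for genes averaging 1 FPKM or more, with Benjamini-Hochberg adjustment over 11130 genes and a threshold of 0.05, after the script was tested on simulated data. This scale understates the change of low genes. For a single gene, an exact permutation test of 3 against 3 cannot go below p = 0.1. Python 3.11.15, pandas 2.3.3 and numpy 2.4.6 were used, with GENCODE M21 for positions. The members and lists were chosen with earlier results of these data known. Named genes were the members, the 3 largest rises and 3 largest falls past the threshold per list, Hmox2, Bach1, Nfe2l2, Ncoa4, Aco1, Ireb2, Slc48a1, Flvcr1, Lcn2 and Trf, and the 3 genes most like Hmox1 and Slc40a1. Some genes that the rule or the lists hold are not reported here. Other heme synthesis genes that fell, Alas2, Hp, Maff, Mafg and single markers were named after their values were seen. Over the 9 lists of pathway and marker genes, 7 genes were entered under older symbols, 5 that lie in joined entries (the leukemia markers Hoxa9 and Hoxa10 among them) and 3 without an entry were left out, and 28 were below the filter. Of 25 named list genes, 9 have exons that overlap another gene: Abcb6, Alas1, Fbxl5, Flvcr1, Hmox2, Mafk, Ppox, Slc48a1 and Trf. Although the libraries keep strand, the FPKM step is not stated to use it.

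Replicate numbers run from 1 to 3 in both groups, with no stated batch. Deviations from the group means correlated by 0.66, 0.21 and 0.43 between samples of the same number and by −0.58 to 0.34 between the others. Each same-number pair was above 0.1, the limit set for pairing. Vehicle replicates 1 and 3 correlated most with the DS-5272 sample of their own number. Vehicle replicate 2 correlated more with DS-5272 replicate 3 (0.335) than with DS-5272 replicate 2 (0.209). The main limma fit held treatment alone, so its SEs, adjusted p-values and counts are unpaired. Pairing entered only through the replicate block, which was 1 of the alternatives. With the block the SE was lower for Fth1 (0.112), Ftl1 (0.0773), Slc11a1 (0.177), Cd163 (0.202), Tfrc (0.222), Blvra (0.0935) and Slc11a2 (0.118). It was slightly higher for Hmox1 (0.0928), Blvrb (0.0981) and Slc40a1 (0.286). The other alternatives were eBayes without trend, a pseudocount of 0.1, unfiltered genes, an average of 5 FPKM or more, upper quartile, median ratio, total (TPM) and quantile scaling, leaving out each sample, and for Cd163 each entry alone.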

Additional observations from a re-analysis of the deposited data

How the results depend on the processing

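The direction was the same for Hmox1, Blvra, Blvrb, Slc11a1, Fth1, Ftl1 and Tfrc in the 16 alternatives run. The members' median log2 fold change of 0.77 was 0.85 with a pseudocount of 0.1, 1.08 with a mean of at least 5 FPKM, 0.66 with a common upper quartile, 0.57 with a common total, 0.67 with quantile normalization and 0.68 to 0.98 leaving out 1 sample. Slc40a1 turned to −0.030 with a common total, −0.067 without DS-5272 replicate 1 (leaving out 1 sample, −0.067 to 0.46) and −0.22 without both samples numbered 1, Slc11a2 to −0.093 with a common total, and Cd163 to −0.18 without DS-5272 replicate 1 (−0.18 to 0.88) and to −0.31 with its second entry alone. Leaving out both samples numbered 1 and using the second entry of Cd163 were chosen after seeing the data. Slc48a1 turned to −0.047 with a common upper quartile, −0.17 with a common total and −0.10 with quantile normalization, and Ncoa4 to 0.0067 without DS-5272 replicate 1 (leaving out 1 sample, −0.33 to 0.0067). Heme synthesis had 1 rise with a common total and 2 to 3 leaving out 1 sample, and heme transport, scavenging and sensing had 4 to 7 rises. Iron uptake, export and storage had 0 falls with a mean of at least 5 FPKM and 4 with quantile normalization. Iron-sulfur cluster assembly had 1 rise each with a mean of at least 5 FPKM, with median ratio scaling, with the replicate block and without both samples numbered 1, and leaving out 1 sample it had 0 to 3 rises and 4 to 8 falls. Over all genes tested, the 2697 higher and 2451 lower became 2233 and 3179 with a common upper quartile, 1717 and 3536 with a common total and 2418 and 3135 with quantile normalization, and leaving out 1 sample gave 1623 to 2934 higher and 1389 to 2432 lower. The median of all genes shifted by −0.12 with a common upper quartile and by −0.25 with a common total. With the replicate block, 3367 genes were higher and 2771 lower, heme transport, scavenging and sensing had 8 rises and iron uptake, export and storage had 7, Camp, Ngp, Cd5l, Spic and Maff passed as well, and the block took the call from none of the 25 named pathway genes. Of these 25, 17 kept their direction and their side of the threshold in every alternative that tested them, and 8 changed one or the other. The causes were not tested. Depth is unknown in reads and was lower in the DS-5272 samples, which limits genes of low FPKM such as Cd163 and Slc11a2. No outlier test was made in groups of 3.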
